A study of Mus musculus with 3264 samples.

Results

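Myc and 48 genes of ribosome biogenesis were followed through single mouse cells of 3 cell lines and through blood cells. The 49 genes were chosen as a list of names, by function, with earlier results of these data known. All 49 have a row among the 24781 genes of the cell line table and among the 25051 genes of the table of peripheral blood mononuclear cells (PBMC). By role they are Myc, 3 enzymes of polyamine and nucleotide synthesis, 7 genes of RNA polymerase I, 8 proteins of small nucleolar RNA particles (snoRNPs), 3 other nucleolar proteins (Ncl, Npm1 and Gnl3), 12 factors of the small ribosomal subunit and 15 of the large one.

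Cells from a mixture of a murine hematopoietic progenitor (HPC) line, a murine T cell line and a murine leukemia line were placed singly in wells by ALPS, an automated picker, or by fluorescence-activated cell sorting (FACS). ALPS wells were picked after time-lapse imaging (time-lapse wells, 96 on each of 16 plates), by type (target wells, 24 HPC, 36 T and 36 leukemia on each of 4 plates) or at random (random wells, 96 on each of 4 plates). FACS filled 24 HPC, 36 T and 36 leukemia wells on each of 2 plates. PBMC of C57BL/6J mice filled 96 wells on each of 8 plates and were picked after time-lapse imaging. The labels name no agent, allele, age or culture, give no strain for the lines, and do not say how the lines were made or told apart, so each group counts as 1 sample and no test between groups was run. Plates are treated as a batch, the labels do not say what else differs between them, and the spread over plates stands beside each value.

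Of the labelled wells, 1836 are listed in the cell line table. Median total counts per well by line and mode ran from 23611 in FACS HPC wells to 58932 in time-lapse wells nearest the T profile. Time-lapse and random wells carry no line in their labels, so each took the line whose target wells it was most like over 9983 genes, with the 49 genes left out. Of all listed wells this made 14.4% HPC, 17.3% T and 23.3% leukemia time-lapse wells, with medians of 16, 20.5 and 27 wells per plate, and 6.05% HPC, 6.48% T and 5.45% leukemia random wells, with medians of 29, 29 and 25 wells per plate. Markers of the lines gave another line in 4 of 1836 wells. Target wells were used by label, with 17 to 21 HPC, 24 to 33 T and 30 to 34 leukemia wells listed per plate, but 3 HPC-labelled wells, all on plate 4, had the profile of another line (1 T and 2 leukemia). FACS wells did not follow their labels: those labelled HPC split into 13 of the HPC, 16 of the T and 16 of the leukemia profile. Those labelled T split into 20, 24 and 24 wells, and those labelled leukemia into 19, 24 and 23 wells, in the same order. They were therefore used by profile, as 52 HPC, 64 T and 63 leukemia wells.

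Time-lapse wells nearest the T profile lacked part of that line's markers. Thy1, a surface protein of T cells, averaged 6.21 CPM in them and 656.4 CPM in random T wells. Ly6a, a surface protein of lymphocytes, averaged 15.9 CPM in time-lapse wells and 162.8 CPM in random T wells. Bcl11b, a transcription factor of the T lineage, was at 396.8 CPM in time-lapse wells and 325.5 CPM in random wells, and Cdk6, a cell cycle kinase, at 535.01 CPM in time-lapse and 403.8 CPM in random wells. Lck, a kinase of T cell signalling, averaged 39.9 CPM in time-lapse and 102.97 CPM in random wells, and Lat, an adaptor of the same signalling, 141.1 CPM in time-lapse and 468.7 CPM in random wells. The 6 T line markers summed to 1134.99 CPM in time-lapse and 2120 CPM in random wells. The 8 HPC line markers summed to 46.9 CPM in these time-lapse wells and 2.88 CPM in random T wells, and the 6 leukemia line markers to 156.9 CPM in time-lapse and 202.3 CPM in random wells. They are called the time-lapse wells nearest the T profile below, and whether they hold the same cells as the random T wells was not tested.

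Ribosomes are built in the nucleolus, where RNA polymerase I copies the ribosomal RNA genes and snoRNPs mark the bases to be modified. Assembly factors then fold and cut the precursor into the small and large subunits. Myc is a transcription factor that binds DNA with its partner Max, most often at the E-box CACGTG, and genes of this pathway, of nucleotide synthesis and of polyamine synthesis are among its best known targets in growing cells.

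In target wells the 3 lines carried nearly the same summed level of these genes. CPM, the counts of a gene per 1000000 counts of a line on a plate, are not scaled for gene length. The 49 genes summed to 13515, 13617, 13627 and 13731 CPM on the 4 plates of HPC wells, to 10338, 10175, 17640 and 16215 CPM in T wells, and to 13422, 13422, 15003 and 13744 CPM in leukemia wells. The T wells alone fell into a low and a high pair of plates, which is taken up below. A gene was called in a comparison of lines when it had at least 10 CPM and 30 counts in 1 line, differed at least 1.5-fold in the mean, and differed in the same direction on all 4 plates. All 49 genes met the minimum in every comparison reported here.

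Calls between the lines were not more frequent among the 49 genes than among all genes tested. HPC against leukemia wells, 1 gene was called higher and 6 lower, against 17.3% and 23.2% of 8119 genes tested. The median log2 difference of the 49 genes was -0.15, beside -0.13 over all genes tested. T against leukemia wells, 4 were called higher and 10 lower, against 23.3% and 21% of 8263 genes, with a median of -0.15 beside 0.01. HPC against T wells, 2 were called higher and 6 lower, against 17.9% and 25.8% of 8310 genes, with a median of 0.13 beside -0.14. In each of these 6 counts the share of the 49 genes called was below the share of all genes, narrowly so for T lower than leukemia wells. Many of these genes differ by plate in T wells, as described below, while a call asks for the same direction on all 4 plates. How far that lowers the counts with T wells was not tested.

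**Figure D1:**
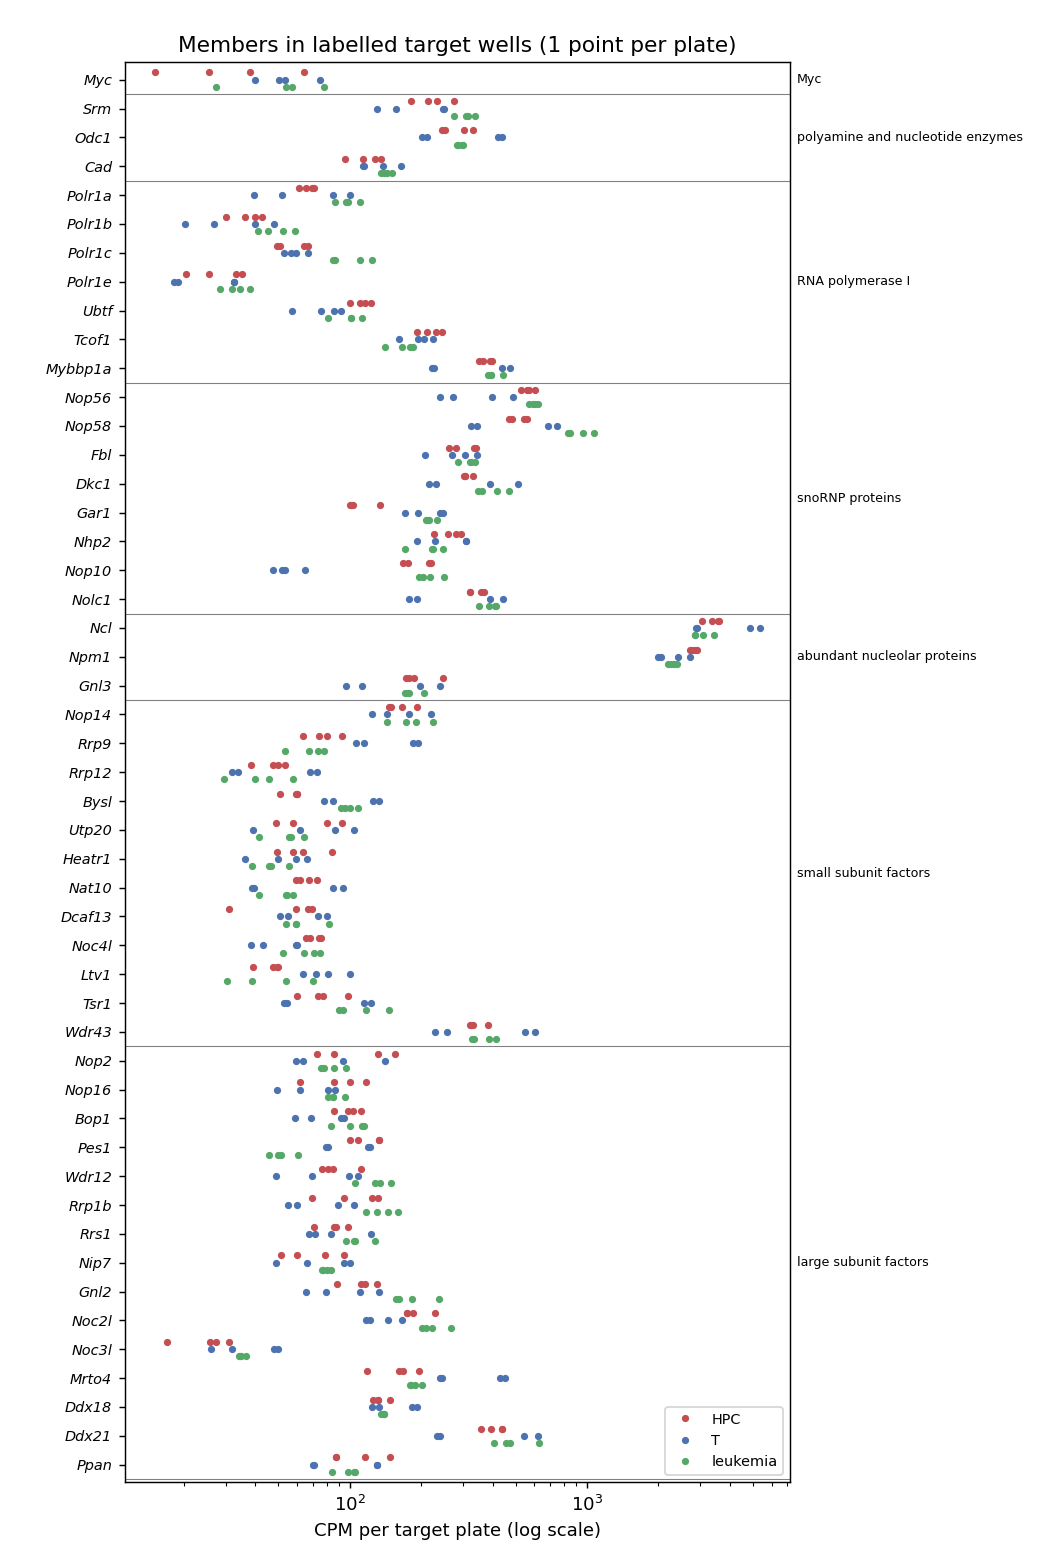
Level of each of the 49 genes in labelled target wells, in CPM on a log axis, with 1 point for each of 4 plates. HPC, T and leukemia wells are drawn as 3 rows from top to bottom within each gene, and genes are grouped by role. Points of the lines overlap for most genes, Nop10 in T wells (47.3 to 64.7 CPM) stands apart from both other lines, and many T genes form 2 pairs of plates.

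Myc itself was lowest in HPC target wells. It stood at 64.3, 38, 25.5 and 15.1 CPM on plates 1 to 4 of HPC wells, at 74.8, 53.4, 39.9 and 50.4 CPM in T wells, and at 77.8, 57.1, 27.3 and 54 CPM in leukemia wells. HPC wells were below the other lines on each plate, although the ranges of the lines overlap. The log2 difference was -0.68 against leukemia wells (plates -1.77 to -0.10) and -0.75 against T wells (-1.68 to -0.21). Both calls were lost with a 2-fold minimum. They were also lost without plate 4, at -0.31 against leukemia and -0.44 against T wells. Plate 4 also holds the 3 HPC-labelled wells of another profile. The call against leukemia wells was also lost in wells of at least 20000 counts (-0.57) and with 10 CPM added before the log2 (-0.54). T against leukemia, Myc differed by 0.07 (plates -0.10 to 0.53). The order of the lines was not the same in all modes. Pooled over HPC, T and leukemia wells in turn, Myc was at 92.2, 64.1 and 80.1 CPM in random wells. In the same order it was at 129.4, 58.1 and 48.9 CPM in FACS wells and at 15.7, 186.8 and 67.7 CPM in time-lapse wells. HPC wells were thus highest in random and FACS wells and lowest in time-lapse wells.

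The nucleolar proteins Ncl and Npm1 had the highest CPM of the members in each line. Ncl, nucleolin, which binds ribosomal RNA precursors, stood at 3373, 3048, 3616 and 3564 CPM in HPC wells, at 2887, 2915, 5371 and 4886 CPM in T wells, and at 2856, 2853, 3418 and 3080 CPM in leukemia wells. Npm1, nucleophosmin, a nucleolar chaperone, stood at 2719, 2784, 2900 and 2857 CPM in HPC wells, at 1999, 2050, 2708 and 2429 CPM in T wells, and at 2334, 2270, 2388 and 2193 CPM in leukemia wells. HPC wells were above leukemia wells in both genes on every plate, but by less than 1.5-fold (log2 differences 0.16 and 0.29). Of the positive values, 20.3% for Ncl, 19% for Npm1 and 39.9% for Polr1b were not whole numbers, beside 5.31% over the table, so these levels are less certain. Whether their counts are shared with similar copies was not tested.

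Nop58 and Nop56 form the core of box C/D snoRNPs, which guide ribosomal RNA methylation. Nop58 stood at 483.003, 468.7, 556.6 and 542.01 CPM in HPC wells, at 345.2, 324.9, 750.5 and 683.1 CPM in T wells, and at 828.2, 851.04, 1074.5 and 957.7 CPM in leukemia wells. Leukemia wells were above both other lines on every plate (log2 differences -0.85 for HPC and -0.91 for T against leukemia, both called). Nop56 stood at 570.6, 602.5, 529.3 and 560.1 CPM in HPC wells, at 239.7, 273.2, 487.4 and 397.6 CPM in T wells, and at 593.7, 603.8, 621.4 and 570.8 CPM in leukemia wells. T wells were lower than leukemia wells (-0.83) and HPC wells higher than T wells (0.75), the second call being lost without plate 1 (0.58) and with each well weighing the same. Ddx21, an RNA helicase of the nucleolus, stood at 357.3, 439.2, 437.5 and 393.3 CPM in HPC wells, at 240.6, 232.9, 620.05 and 544.4 CPM in T wells, and at 403.98, 454.3, 627.8 and 475.8 CPM in leukemia wells, and no call was made.

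Nop10, a small protein of box H/ACA snoRNPs, which guide pseudouridylation, had the largest difference. It stood at 216.7, 220.3, 176.4 and 168.3 CPM in HPC wells, at 53.3, 64.7, 51.8 and 47.3 CPM in T wells, and at 250.2, 195.9, 204.3 and 217.5 CPM in leukemia wells. T wells did not overlap with either line (log2 differences -1.98 for T against leukemia and 1.83 for HPC against T). Gar1, another protein of the same particles, was instead low in HPC wells, at 103.3, 101.3, 100.05 and 134.4 CPM, against 194.2, 171.5, 240.5 and 248.2 CPM in T wells and 213.3, 215.8, 209.3 and 234.1 CPM in leukemia wells (-0.95 and -0.99). The other box H/ACA genes, Dkc1, the pseudouridine synthase, and Nhp2, were not called in any of the 3 comparisons.

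Among the large subunit factors, Pes1, a part of the complex it forms with Bop1 and Wdr12, was low in leukemia wells. It stood at 99.9, 132.3, 132.8 and 108.7 CPM in HPC wells, at 80.8, 79, 121.9 and 119.1 CPM in T wells, and at 49.9, 51.3, 60.7 and 45.5 CPM in leukemia wells (1.17 for HPC and 0.92 for T against leukemia). Wdr12 went the other way in T wells, at 69.6, 48.8, 99.2 and 108.2 CPM, against 105.6, 127.7, 133.5 and 149.7 CPM in leukemia wells (-0.71, a call lost without plate 2 at -0.50), and Bop1 was not called. Gnl2, a nucleolar GTPase, stood at 88, 130.2, 110.96 and 116.3 CPM in HPC wells, at 79, 65.6, 132.6 and 110.8 CPM in T wells, and at 156.4, 161.6, 236.6 and 182.9 CPM in leukemia wells. Both lines were lower than leukemia wells in Gnl2 (-0.72 for HPC, -0.95 for T).

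Rrp1b and Noc2l, also large subunit factors, were lower in T than in leukemia wells. Rrp1b stood at 59.9, 55.1, 104.6 and 89.2 CPM in T wells, against 130.2, 159.2, 145.1 and 117.5 CPM in leukemia wells (-0.87). Noc2l averaged 137.3 CPM in T wells (plates 116.9 to 166.1) and 225.4 CPM in leukemia wells (202.4 to 265.97). Mrto4, a large subunit assembly factor, was highest in T wells. It stood at 161.7, 167.5, 118.2 and 196.3 CPM in HPC wells, at 245.3, 240.03, 450.2 and 428.96 CPM in T wells, and at 188.5, 181.4, 202.3 and 180.1 CPM in leukemia wells. The log2 difference of Mrto4 was 0.79 for T against leukemia and -1.04 for HPC against T wells.

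The small subunit factors called were Rrp9, Ltv1 and Bysl. Rrp9, a protein of the U3 snoRNP, stood at 93.1, 80.2, 63.7 and 74 CPM in HPC wells, at 114.3, 105.9, 193.02 and 184.5 CPM in T wells, and at 67.2, 73.5, 78.1 and 53.5 CPM in leukemia wells. T wells did not overlap with either line (1.08 for T against leukemia, -0.90 for HPC against T). Ltv1, a factor of late small subunit maturation, averaged 46.3 CPM in HPC wells (38.9 to 49.8), 79.3 CPM in T wells (63.6 to 100) and 48.2 CPM in leukemia wells (30.3 to 69.8). Bysl, bystin, stood at 59.3, 50.7, 60 and 59.6 CPM in HPC wells, below the 85.1, 78.2, 132.6 and 124.7 CPM of T wells (-0.83) and the 95.1, 91.9, 108.2 and 100.5 CPM of leukemia wells (-0.78).

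Of the enzymes, Srm, which makes spermidine, was called lower in T than in leukemia wells (-0.71, a call lost without plate 2 at -0.49), with 157.02, 130.3, 246.9 and 248.8 CPM in T wells and 314.4, 338.2, 308.4 and 275.8 CPM in leukemia wells. Odc1, the first enzyme of polyamine synthesis, and Cad, which starts pyrimidine synthesis, were not called. Of the polymerase genes, Polr1c, a subunit shared with RNA polymerase III, stood at 66.9, 50.7, 49.1 and 64.2 CPM in HPC wells, at 59.3, 56.3, 52.8 and 66.4 CPM in T wells, and at 123.8, 110.3, 87 and 85.3 CPM in leukemia wells (-0.80 and -0.77 against leukemia). Polr1a, the largest polymerase I subunit, was called lower in T wells (69 CPM on average, plates 39.5 to 99.9) than in leukemia wells (98 CPM, 86.2 to 110.9), a call lost in 6 of 13 alternatives.

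Other genes of the pathway, listed apart from the 49, were called both ways in target wells. HPC against leukemia wells, 1 of 43 small subunit genes was called higher and 10 lower, 3 of 43 large subunit assembly genes higher and 6 lower, and 1 of 14 exosome genes higher and 6 lower, beside 17.3% higher and 23.2% lower over all genes. T against leukemia wells, the small subunit genes gave 4 higher and 9 lower, the large subunit genes 8 higher and 3 lower, and the exosome genes 0 higher and 3 lower, beside 23.3% higher and 21% lower over all genes. Of 22 genes of polyamine and nucleotide synthesis 8 were called higher and 2 lower in T wells against leukemia wells, and 1 higher and 6 lower in HPC wells against T wells, where 17.9% of all genes were higher and 25.8% lower. These counts lie near or under the background, apart from the exosome genes lower in HPC than in leukemia wells and the synthesis genes higher in T than in leukemia wells, and nothing is read from them about the lists.

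T wells of the target plates fell into 2 levels of these genes by plate. With plates 3 and 4 set against plates 1 and 2, 29 of 49 genes were at least 1.5-fold higher on both later plates and none was lower, with a median ratio of 1.67. Over all 7527 genes at the same minimum, 11.1% were higher and 12.9% lower in that way, and the median ratio was 1.02. In HPC wells of the same plates 0 of 49 genes were higher and 3 lower, and in leukemia wells 0 were higher and 1 lower, with median ratios of 0.964 in HPC and 1.03 in leukemia wells. Over all genes 4.58% were higher and 5.48% lower in HPC wells, and 4.17% higher and 5.28% lower in leukemia wells, so the lower counts there lie near or under the background. The largest ratios in T wells were 2.45 for Ddx21, 2.37 for Wdr43, a small subunit factor, 2.25 for Nat10, an RNA acetyltransferase, and 2.24 for Nolc1, a chaperone of snoRNPs. Myc did not share in this, at a ratio of 0.709, nor did Nop10 at 0.842 or Tcof1, treacle, at 0.822.

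**Figure D2:**
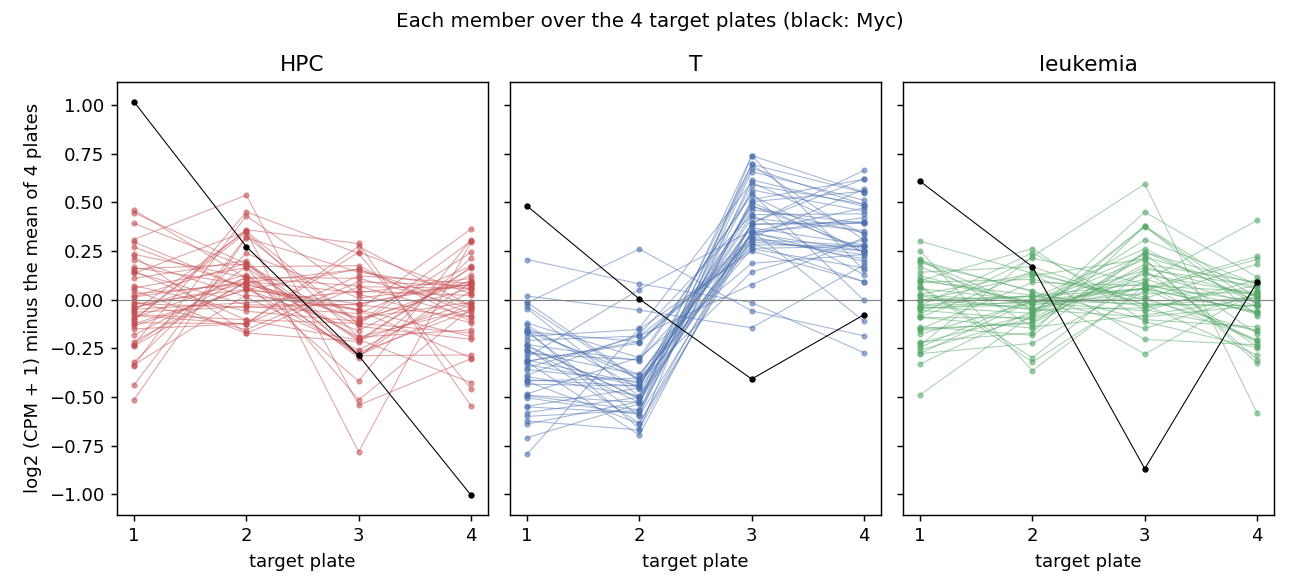
Each of the 49 genes on the 4 target plates, as log2 (CPM + 1) minus that gene's mean over the plates, by line, with Myc in black. In T wells 29 genes are at least 1.5-fold higher on both plates 3 and 4 than on both plates 1 and 2 and Myc is not, while in HPC and leukemia wells none is.

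T wells of the 2 FACS plates differed in these genes too. Of the 49 genes, 32 were at least 1.5-fold higher on plate 2 than on plate 1 in T wells and none was lower. The median ratio of the 49 genes was 1.61. Over all genes 18.1% were higher and 11.5% lower, with a median ratio of 1.08. The summed genes stood at 9866 and 15518 CPM in FACS T wells and at 13640 and 12887 CPM in FACS leukemia wells. In FACS HPC wells 16 genes were higher and 1 lower, beside 21.5% higher and 11.8% lower over all genes, with sums of 10598 and 13582 CPM. Random T wells showed no split, at 15328, 15135, 15131 and 14139 CPM on 4 plates.

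Other values of the T wells moved with the plates too. Ly6a stood at 478.7, 402.02, 197.9 and 189.9 CPM on target plates 1 to 4, and Cdk6 at 267.2, 258.9, 541.3 and 424.6 CPM. Thy1 stayed between 547.8 and 629.3 CPM. Rn45s, the ribosomal RNA precursor, took 9.13, 11.6, 11.8 and 10.8% of the counts, and the median total per well was 35614, 35990, 36730 and 47422 counts. The split was noticed in the data, no test was run on it, and what sets the plates apart was not tested.

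Time-lapse HPC wells held far less of this program than random HPC wells. The 49 genes summed to between 5367 and 10107 CPM on the 16 time-lapse plates, with a median of 6455 CPM, against 10192, 11400, 10682 and 10257 CPM on the 4 random plates, so the groups did not overlap. A gene was called here when the means differed at least 1.5-fold and at least 85% of time-lapse plates lay beyond every random plate. Of the 49 genes, 35 were called lower and none higher, against 14.2% and 8.76% of 8349 genes tested. The median log2 difference was -1.12, beside -0.08 over all genes tested. Below 0 were 47 of 49 genes, beside 4626 of the 8349 genes tested. For 21 genes all 16 time-lapse plates lay below every random plate, a count for which the share over all genes is not given here. No plate holds both groups, so picking mode and plate cannot be told apart. The 49 genes were chosen with earlier results of these data known, so the counts describe the list and do not test it.

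Values that moved with these 2 groups were measured. The median share of Rn45s was 13.5% in time-lapse HPC wells and 9.67% in random HPC wells, and without it in the total 32 genes were called lower. The median total was 33961 counts in time-lapse and 29584 counts in random HPC wells, and 34 genes were called lower in wells of at least 20000 counts. The 8 HPC markers summed to 2356 CPM in time-lapse wells (plates 1884 to 2910) and 2733 CPM in random wells (2624 to 2853). They did not move together. Lst1 averaged 59.4 CPM in time-lapse and 145.8 CPM in random wells, and Plac8 587.8 CPM in time-lapse and 844.7 CPM in random wells. Cd34, Flt3 and Tyrobp averaged lower in time-lapse wells too. Spi1 averaged 186.2 CPM in time-lapse and 123.2 CPM in random wells, and Mef2c 589.2 CPM in time-lapse and 475.5 CPM in random wells. Hoxa9 averaged higher in time-lapse wells too. Whether both groups hold the same cells was not tested. The 6 leukemia markers summed to 48.6 CPM in time-lapse and 25.1 CPM in random HPC wells, the 6 T markers to 361.5 CPM in time-lapse and 535.9 CPM in random HPC wells. Of these sums Cdk6 made up 344.2 CPM in time-lapse and 503.9 CPM in random wells, while Thy1 was at 0 in time-lapse HPC wells. Shares of all genes called in the recounts of 32 and 34 genes are not given here. The part of all these values in the result was not tested beyond those recounts.

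**Figure D3:**
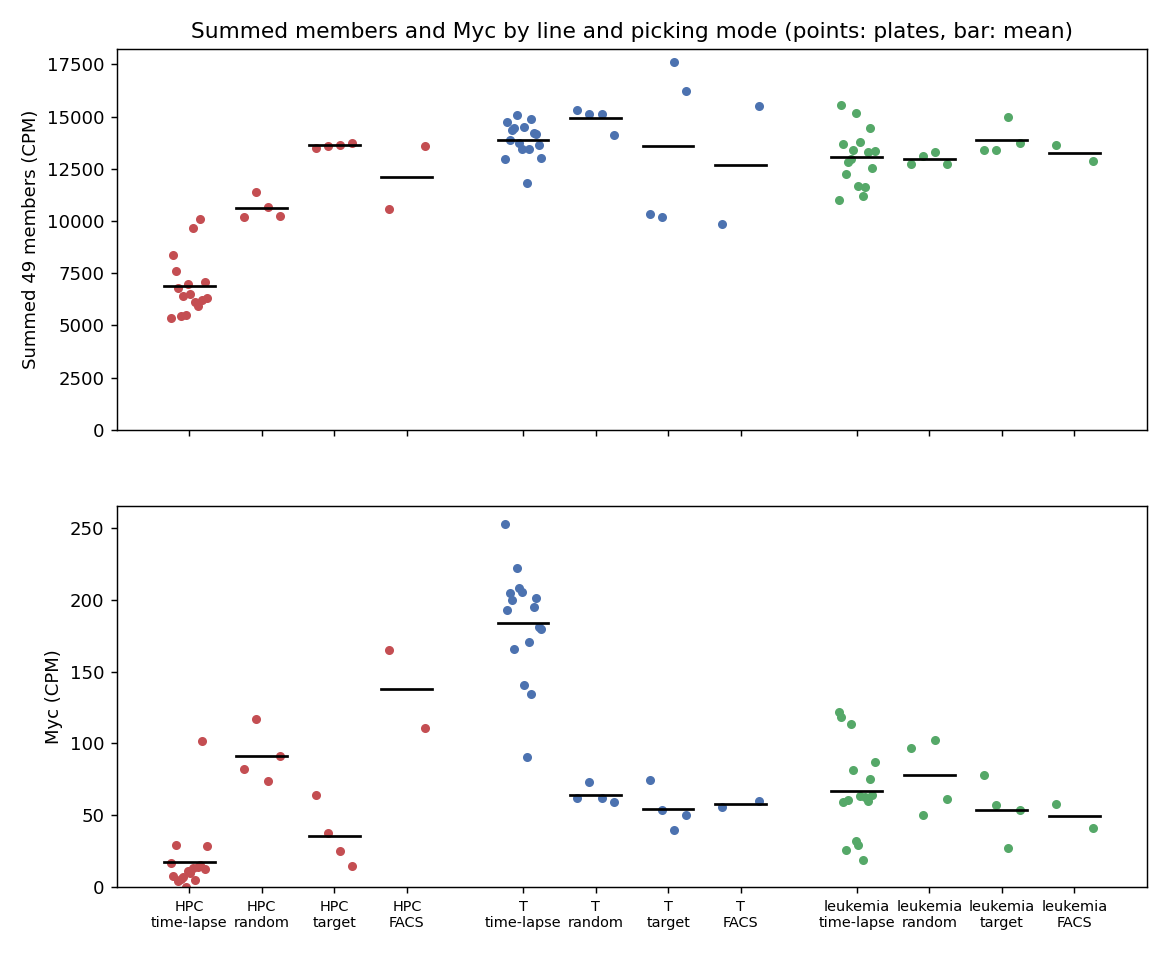
Summed 49 genes and Myc in CPM by line and picking mode, with 1 point for each plate and a bar at the mean over plates. Time-lapse HPC plates lie below every random HPC plate in the sum and 15 of 16 do so in Myc, while in the time-lapse wells nearest the T profile Myc is above every random T plate and the sum is not.

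Myc was the member with the largest difference. It stood between 0 and 101.9 CPM on the time-lapse plates of HPC wells, with a median of 11.8 CPM, against 82, 116.9, 73.7 and 91.4 CPM on the random plates. On 15 of 16 time-lapse plates it was below every random plate, plate 14 being the one at 101.9 CPM. The log2 difference was -2.92, and -3.13 without that plate. Pooled over all wells Myc was at 15.7 CPM in time-lapse wells (exact Poisson 95% interval 13.2 to 18.5) and at 92.2 CPM in random wells (82.4 to 102.9), where the intervals cover counting error only. A count of Myc was found in 20.1% of time-lapse and 63.1% of random HPC wells.

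All 3 enzymes were called lower. Srm stood between 13.5 and 153.98 CPM on time-lapse plates, with a median of 43.1 CPM, against 185.02, 235.8, 181.2 and 220.7 CPM on random plates (-2.20). Odc1 averaged 82.9 CPM in time-lapse and 206.8 CPM in random wells (-1.43), without overlap. Cad averaged 56.2 CPM in time-lapse and 109.9 CPM in random wells (-1.03).

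Of the 7 polymerase genes 5 were called lower. Polr1b, the second largest subunit, stood between 0.846 and 17.3 CPM on time-lapse plates, with a median of 7.12 CPM, against 26.7, 40.7, 25.6 and 24.7 CPM on random plates (-2.11), without overlap. Tcof1 averaged 94.4 CPM in time-lapse and 208.9 CPM in random wells (-1.21). Ubtf, the factor that opens ribosomal RNA genes, averaged 60.1 CPM in time-lapse and 97.4 CPM in random wells (-0.71). Mybbp1a, a nucleolar Myb-binding protein, averaged 154.98 CPM in time-lapse and 264.6 CPM in random wells (-0.83), and all 3 were called lower, Mybbp1a not with each well weighing the same. Polr1e, a small subunit (-0.64), was called but lost the call in 8 of 29 alternatives. Polr1a (24.3 CPM in time-lapse against 48.9 CPM in random wells) was not called, and Polr1c differed by 0.37, with 74.8 CPM in time-lapse and 57.9 CPM in random wells.

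All 8 snoRNP genes were called lower. Nop56 stood between 161.01 and 359.1 CPM on time-lapse plates, with a median of 203.7 CPM, against 482.2, 488.3, 549.6 and 413.5 CPM on random plates (-1.19). Dkc1 stood between 27.1 and 152.7 CPM, with a median of 55.3 CPM, in time-lapse wells, against 238.4, 287.9, 228.1 and 228.97 CPM in random wells (-1.96). Nolc1 stood between 27.1 and 180.9 CPM, with a median of 50.4 CPM, in time-lapse wells, against 239.6, 258.5, 229.97 and 214.1 CPM in random wells (-1.93). None of these 3 overlapped. Gar1 (-1.32), Nhp2 (-1.31) and Nop10 (-1.28) were lower as well, also without overlap.

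Nop58 stood between 52 and 377.5 CPM on time-lapse plates, with a median of 116.8 CPM, against 339.2, 376.4, 374.95 and 340.2 CPM on random plates (-1.40), with 1 plate above every random plate. Fbl, fibrillarin, the methyltransferase of box C/D particles, averaged 179.8 CPM in time-lapse and 263.8 CPM in random wells (-0.61). It was the least of the snoRNP differences, and it lost the call in 10 of 29 alternatives.

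Of the nucleolar proteins Gnl3 was called lower, and Npm1 and Ncl were not called. Npm1 stood between 1565 and 3028 CPM on time-lapse plates, with a median of 2306 CPM, against 2093, 2336, 2262 and 2414 CPM on random plates (0.03), and the groups overlapped. Ncl stood between 1260.5 and 2527 CPM, with a median of 1656 CPM, in time-lapse wells, against 2323, 2535, 2405 and 2382 CPM in random wells (-0.52), below every random plate on 15 of 16 plates but under 1.5-fold. Gnl3, nucleostemin, a nucleolar GTPase of growing cells, was at 24 to 94.8 CPM, with a median of 34.3 CPM, in time-lapse wells, against 163.04, 182.6, 134.4 and 115.3 CPM in random wells (-1.80). Without Ncl and Npm1 the other 47 genes summed to 2842 CPM in time-lapse and 5945 CPM in random HPC wells.

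Small subunit factors were called lower in 7 of 12 cases, and all 12 were below 0. Rrp9 stood between 11.4 and 35.9 CPM, with a median of 15.6 CPM, on time-lapse plates, against 39.5, 65.9, 43.7 and 57.7 CPM on random plates (-1.44). Tsr1, a GTPase-like factor, averaged 23.6 CPM in time-lapse and 58.3 CPM in random wells (-1.38), and Wdr43 82.5 CPM in time-lapse and 203.1 CPM in random wells (-1.36). Heatr1 (-1.10), Rrp12 (-1.16), Nat10 (-1.08) and Noc4l (-0.95) were the others. Bysl differed by -1.44 but its plates spread from 0 to 48 CPM in time-lapse and from 18.1 to 57 CPM in random wells, so it was not called. Utp20 (-0.17), Dcaf13 (-0.27), Nop14 (-0.38) and Ltv1 (-0.76) were not called either.

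Large subunit factors were called lower in 10 of 15 cases, and all 15 were below 0. Rrp1b stood between 1.61 and 38.1 CPM, with a median of 16.9 CPM, on time-lapse plates, against 73.6, 96.6, 83.1 and 70.8 CPM on random plates (-2.39). Ppan, a factor of early large subunit assembly, stood between 0 and 61.1 CPM, with a median of 23 CPM, in time-lapse wells, against 90.9, 104.4, 117.5 and 89 CPM in random wells (-2.22). Rrs1 stood between 16.1 and 37.2 CPM, with a median of 24.9 CPM, in time-lapse wells, against 75.1, 95.7, 71.2 and 80.7 CPM in random wells (-1.63). These 3 had no overlap.

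Nop2, an rRNA methyltransferase (-1.33), Nop16 (-1.40), Mrto4 (-1.34), Noc2l (-1.12), Wdr12 (-0.89), Pes1 (-0.75) and the helicase Ddx18 (-0.63, a call lost in 5 of 29 alternatives) completed the calls. Ddx21 stood between 120.1 and 352.2 CPM, with a median of 163.3 CPM, on time-lapse plates, against 235.9, 311.6, 278.7 and 248.7 CPM on random plates (-0.57), and was not called. Bop1 (-0.93), Nip7 (-0.80), Noc3l (-0.72) and Gnl2 (-0.35) were below 0 without a call.

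Other genes of the pathway showed the same direction in HPC wells. Lower calls were made for 15 of 43 large subunit assembly genes, 12 of 42 small subunit genes, 8 of 14 exosome genes, 11 of 22 genes of polyamine and nucleotide synthesis and 4 of 14 genes of RNA polymerase I, and no gene of these lists was called higher, beside 14.2% lower and 8.76% higher over all genes. The medians were -0.61, -0.67, -0.84, -0.73 and -0.48 in the same order. Cd3eap, a polymerase I subunit, was at 17.1 CPM in time-lapse and 68.2 CPM in random wells (-2.08), and Exosc5, an exosome subunit, at 46.7 CPM in time-lapse and 138.1 CPM in random wells (-1.60). Ctps, which makes CTP, was at 17.4 CPM in time-lapse and 61.4 CPM in random wells (-1.80). Of 13 other genes of the Myc network 2 were called higher, among them Mga, a Max partner (58.7 CPM in time-lapse against 30.004 CPM in random wells, 0.93), and 2 lower, while Max itself differed by -0.10.

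**Figure D4:**
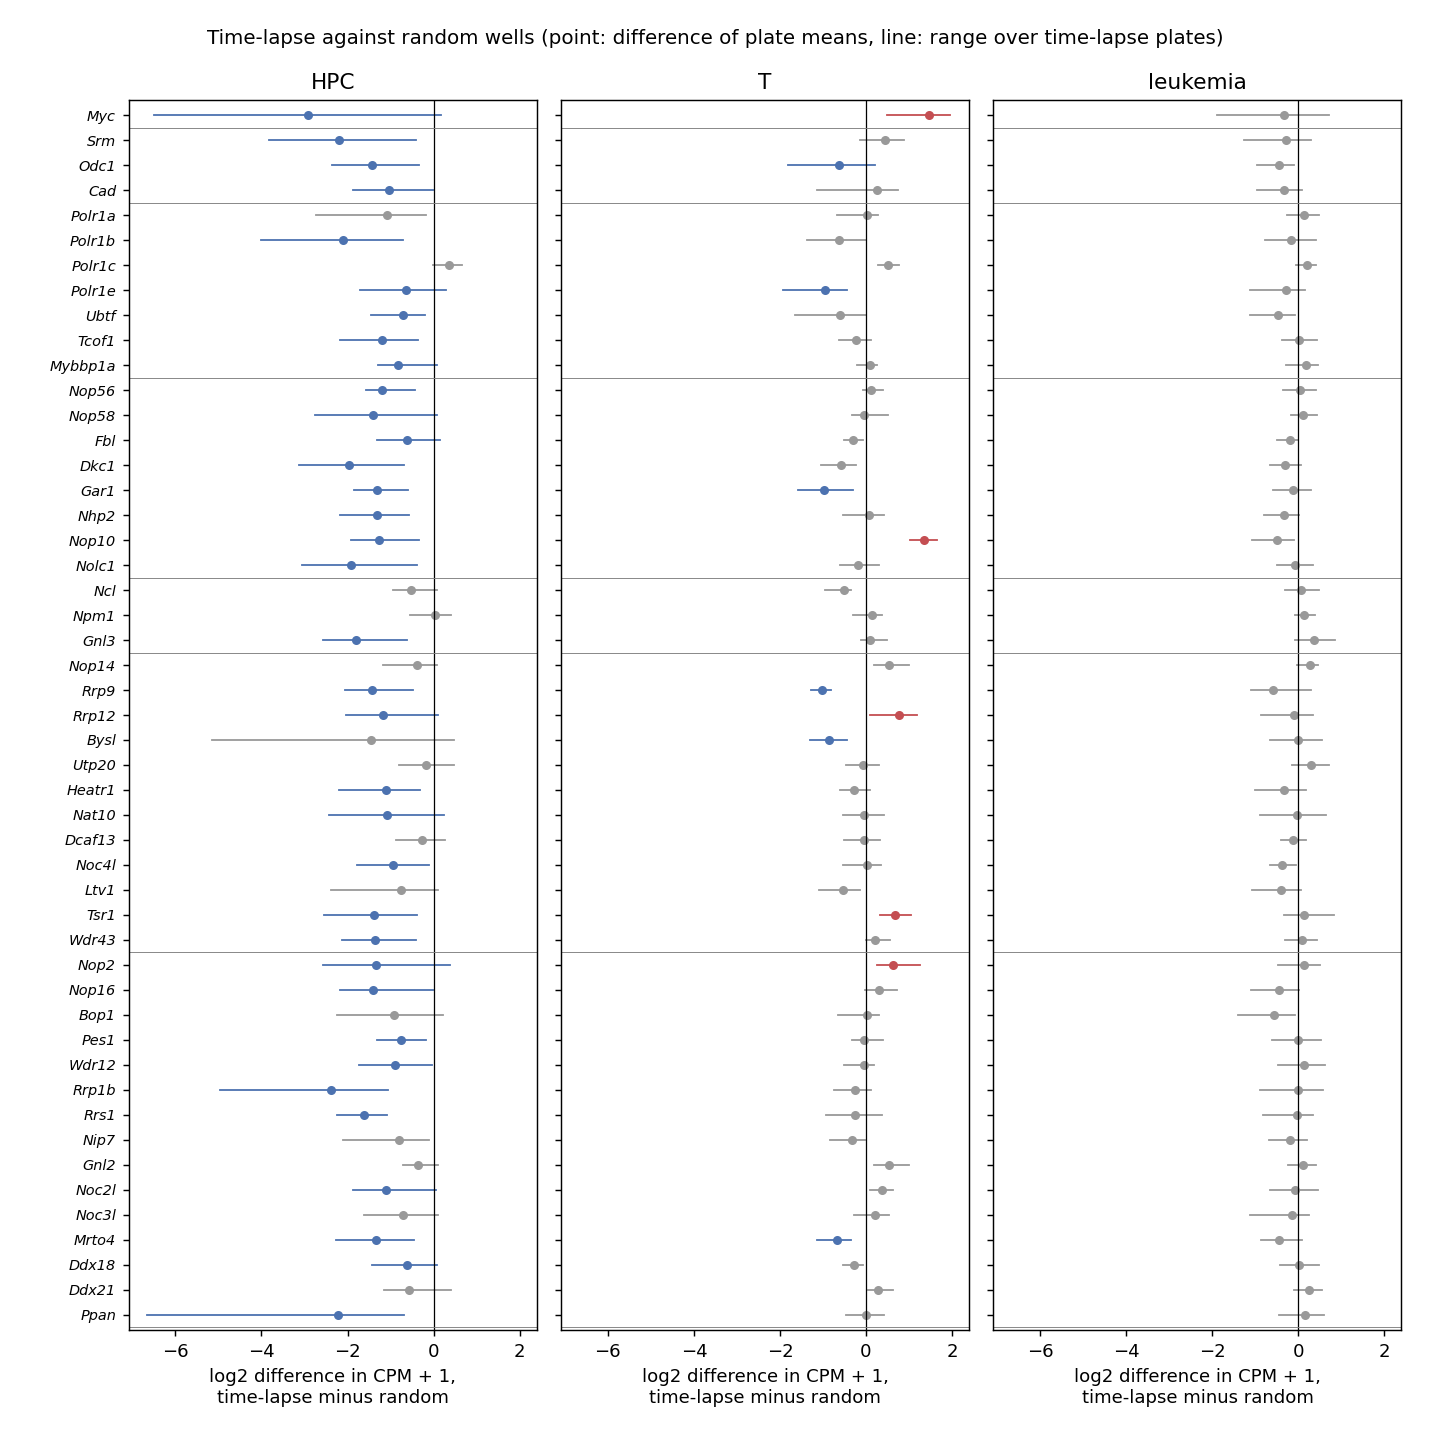
Difference between time-lapse and random wells for each of the 49 genes, on a log2 (CPM + 1) scale, by line. Points are differences of plate means, lines run over the time-lapse plates, blue marks genes called lower and red genes called higher. In HPC wells 35 genes are called lower, in wells nearest the T profile 5 higher and 6 lower, and in leukemia wells none.

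In the time-lapse wells nearest the T profile, Myc was high while the other genes were, in the median, where they stand in random T wells. Myc stood between 90.9 and 252.4 CPM on time-lapse plates, with a median of 193.8 CPM, against 61.9, 73.2, 62.2 and 59.5 CPM on random plates, and all 16 plates lay above every random plate (1.47). Summed over all wells it was at 186.8 CPM in time-lapse wells (interval 180.8 to 193.01) and 64.1 CPM in random wells (57.7 to 70.99), with a count in 99.1% of time-lapse and 90.8% of random wells. Of the 49 genes 5 were called higher and 6 lower, against 16.3% and 18.2% of 8182 genes, and the median difference was -0.04, beside -0.02 over all genes. The summed genes stood between 11805 and 15076 CPM, with a median of 14019 CPM, on time-lapse plates, against 15328, 15135, 15131 and 14139 CPM on random plates, and these overlap. These time-lapse wells hold little Thy1, as given above, so the line and the picking mode cannot be told apart here.

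The calls in these wells went both ways within 1 role. Nop10 was at 119.997 to 188.01 CPM, with a median of 155.8 CPM, in time-lapse wells, against 47.6, 62.4, 76.3 and 52.5 CPM in random wells (1.36). Gar1 of the same particle was at 86.9 to 210.3 CPM, with a median of 129.6 CPM, in time-lapse wells, against 264.1, 281.5, 241.7 and 254.4 CPM in random wells (-0.97). Both are without overlap. Tsr1 was at 129.5 to 213.9 CPM, with a median of 157.9 CPM, in time-lapse wells, against 103.5, 107.4, 106.1 and 93 CPM in random wells (0.68). Rrp12, also a small subunit factor, was at 58.2 to 125.997 CPM, with a median of 97.7 CPM, in time-lapse wells, against 54.7, 61.1, 56.4 and 47.5 CPM in random wells (0.77). Nop2 was at 141.4 to 283.01 CPM, with a median of 178.6 CPM, in time-lapse wells, against 132.03, 117.5, 116.4 and 110.5 CPM in random wells (0.64).

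Lower in these wells were Rrp9, Bysl, Polr1e, Mrto4 and Odc1 besides Gar1. Rrp9 was at 80.3 to 109.8 CPM, with a median of 96.2 CPM, in time-lapse wells, against 202.8, 207.5, 188.1 and 180.9 CPM in random wells (-1.03). Bysl was at 50.6 to 92.4 CPM, with a median of 70.6 CPM, in time-lapse wells, against 118.4, 118.8, 147.1 and 119.96 CPM in random wells (-0.86). Polr1e was at 7.75 to 23.5 CPM, with a median of 17.4 CPM, in time-lapse wells, against 40.4, 27.5, 31.5 and 31.5 CPM in random wells (-0.94). All 3 are without overlap. Mrto4 averaged 267.2 CPM in time-lapse and 427.1 CPM in random wells (-0.68), and Odc1 270.9 CPM in time-lapse and 405.97 CPM in random wells (-0.63), and the Odc1 call was lost without Rn45s in the total, with a 2-fold minimum, without random plate 1 and without time-lapse plate 10.

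The members with the highest CPM were not called in these wells. Ncl was at 2245 to 3405 CPM, with a median of 3062 CPM, in time-lapse wells, against 4430, 4293, 4511 and 4032 CPM in random wells (-0.50), below on all 16 plates but under 1.5-fold. Npm1 was at 1886 to 3021 CPM, with a median of 2612 CPM, in time-lapse wells, against 2336, 2438, 2250 and 2327 CPM in random wells (0.15). Nop58 (-0.04), Nop56 (0.11) and Ddx21 (0.29) differed little. Of the lists, 3 of 14 exosome genes were called higher and 5 lower, and 4 of 12 genes of the Myc network higher and 1 lower, beside 16.3% higher and 18.2% lower over all genes.

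Between time-lapse and random leukemia wells no call was made among these genes. None of the 49 was called higher or lower, against 3.33% and 5.2% of 7718 genes, and the median difference was -0.07, beside -0.11 over all genes. With so few calls over all genes, their absence here is near the background and nothing is read from it. Without random plate 1, 2 of the 49 were called lower, and the share of all genes called in that recount is not given here. The sums stood between 11031 and 15542 CPM, with a median of 13142 CPM, on time-lapse plates, against 12756, 13100, 13313 and 12716 CPM on random plates. Myc stood between 19.2 and 121.9 CPM, with a median of 63.1 CPM, in time-lapse wells, against 97.2, 50.3, 102.5 and 61.2 CPM in random wells (-0.32). Ncl stood between 2166 and 3748 CPM, with a median of 2787 CPM, in time-lapse wells, against 2608, 2590, 2841 and 2670 CPM in random wells (0.06), and the groups overlapped. Rrp9 differed by -0.60, with 13 of 16 time-lapse plates below every random plate, which is under the 85% asked for. Whether the HPC difference exceeds that in leukemia wells was not tested.

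Promoter windows were searched for the E-box, the letters that Myc binds most often. RefSeq windows of 300 bases, 250 before to 50 after the start site (GRCm38.p6), were at hand for 39 of the 49 genes. The letters CACGTG, which read the same on both strands, were found in 7 of these 39 genes (17.9%), beside 8.09% of 27025 genes with a window and 12.8% of 6345 genes of at least 10 CPM in the cell lines. Of genes called lower in time-lapse HPC wells 5 of 29 held it, and of the others 2 of 10. A match describes the letters only. No window was given for Myc, Srm, Tcof1, Fbl, Npm1, Rrp12, Dcaf13, Bop1, Rrs1 and Gnl2.

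The 7 stretches of 30 bases that hold the E-box, in capitals, are shown 5′ to 3′ along the strand of the gene, to let their surroundings be compared. Positions are counted from the start site as 0.
Nop2, chr6:125131811-125131840, plus strand, position -60: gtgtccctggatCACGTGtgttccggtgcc
Pes1, chr11:3963965-3963994, plus strand, position 2: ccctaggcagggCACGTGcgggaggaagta
Wdr43, chr17:71616220-71616249, plus strand, position 17: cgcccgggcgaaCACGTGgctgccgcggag
Tsr1, chr11:74898092-74898121, plus strand, position 24: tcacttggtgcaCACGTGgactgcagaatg
Ltv1, chr10:13193092-13193121, minus strand, position 28: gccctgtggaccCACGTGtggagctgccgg
Utp20, chr10:88826765-88826794, minus strand, position 37: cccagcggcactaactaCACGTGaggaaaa
Mybbp1a, chr11:72441347-72441376, plus strand, position 40: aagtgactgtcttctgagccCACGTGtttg
In 6 of the 7 the E-box lies after the start site. Nop2, Pes1, Wdr43, Tsr1 and Mybbp1a were called lower in time-lapse HPC wells and Ltv1 and Utp20 were not.

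Nop2 and Ppan show the 250 bases before the start site of a gene with and of a gene without the E-box, both on the plus strand and both lower in time-lapse HPC wells (-1.33 and -2.22).
Nop2, chr6:125131633-125131882: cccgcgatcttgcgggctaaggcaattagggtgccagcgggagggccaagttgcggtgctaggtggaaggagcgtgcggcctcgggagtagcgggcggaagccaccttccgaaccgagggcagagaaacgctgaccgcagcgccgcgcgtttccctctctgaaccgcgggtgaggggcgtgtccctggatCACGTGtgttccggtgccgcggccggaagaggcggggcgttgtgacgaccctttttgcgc
Ppan, chr9:20887925-20888174: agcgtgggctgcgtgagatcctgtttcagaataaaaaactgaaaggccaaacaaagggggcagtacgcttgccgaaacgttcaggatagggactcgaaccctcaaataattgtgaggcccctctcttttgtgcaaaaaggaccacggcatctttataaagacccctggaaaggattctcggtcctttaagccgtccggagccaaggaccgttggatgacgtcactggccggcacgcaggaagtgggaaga
In the 300 bases of Ppan the letters CACGTG do not occur, which says nothing about the factor.

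Target wells picked by ALPS were compared with FACS wells in these genes. As no plate holds both groups, the way of isolation and the plate cannot be told apart. A gene was called when the means differed at least 1.5-fold and every pair of plates agreed in direction. In HPC wells Myc was the one gene called, lower at 64.3, 38, 25.5 and 15.1 CPM in target wells, against 165.2 and 110.6 CPM in FACS wells (-2.08), beside 5.3% of 7147 genes called higher and 7.01% lower. With FACS wells by label the difference was -1.38 and not every pair of plates agreed, so the call was lost. Over all alternatives it lay between -2.42 and -1.38. In T wells Noc3l, a large subunit factor, was the one gene called, higher at 31.8, 26.1, 48 and 49.8 CPM in target wells, against 21.9 and 21.5 CPM in FACS wells (0.76), beside 3.07% higher and 3.53% lower of 7568 genes. In leukemia wells none was called, beside 3.33% higher and 2.88% lower of 7321 genes.

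The 5 members with the highest CPM were not called between target and FACS wells. In HPC wells Ncl was at 3373, 3048, 3616 and 3564 CPM in target wells and 2182 and 2620 CPM in FACS wells (0.50), Npm1 averaged 2815 CPM in target and 2525 CPM in FACS wells (0.16), and Nop56 565.6 CPM in target and 534.5 CPM in FACS wells (0.11). In leukemia wells Ncl was at 2856, 2853, 3418 and 3080 CPM in target wells and 2805 and 2577 CPM in FACS wells (0.18), above both FACS plates on each target plate. In T wells Ncl was at 2887, 2915, 5371 and 4886 CPM in target wells and 2672 and 3968 CPM in FACS wells (0.24), and the plate split described above runs through both groups. Without FACS plate 1, 14 of the 49 genes were called lower in target T wells, and without FACS plate 2, 14 were called higher. In HPC wells the same omissions gave 8 lower and 8 higher calls, so these counts rest on single FACS plates. Shares of all genes called under these omissions are not given here, so nothing is read from the counts about the 49 genes. Rn45s took 10.1 to 14.6% of the counts on the plates of target HPC wells and 5.99 to 6.18% on those of FACS HPC wells.

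Across single wells the level of these genes followed the total counts in HPC wells. The 48 genes without Myc had a Spearman correlation with the total counts of 0.63 over the time-lapse, 0.57 over the random, 0.47 over the 73 target and 0.66 over the 52 FACS HPC wells. In T and leukemia wells the values were between 0.13 and 0.19, except 0.65 over 64 FACS T wells, which was 0.08 within plates. The points of each correlation share their plates, and total counts enter both measures, since CPM divides by the total. With wells thinned to 10000 counts the HPC values were 0.61, 0.55, 0.47 and 0.62 in the same order, the last over 51 wells.

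**Figure D5:**
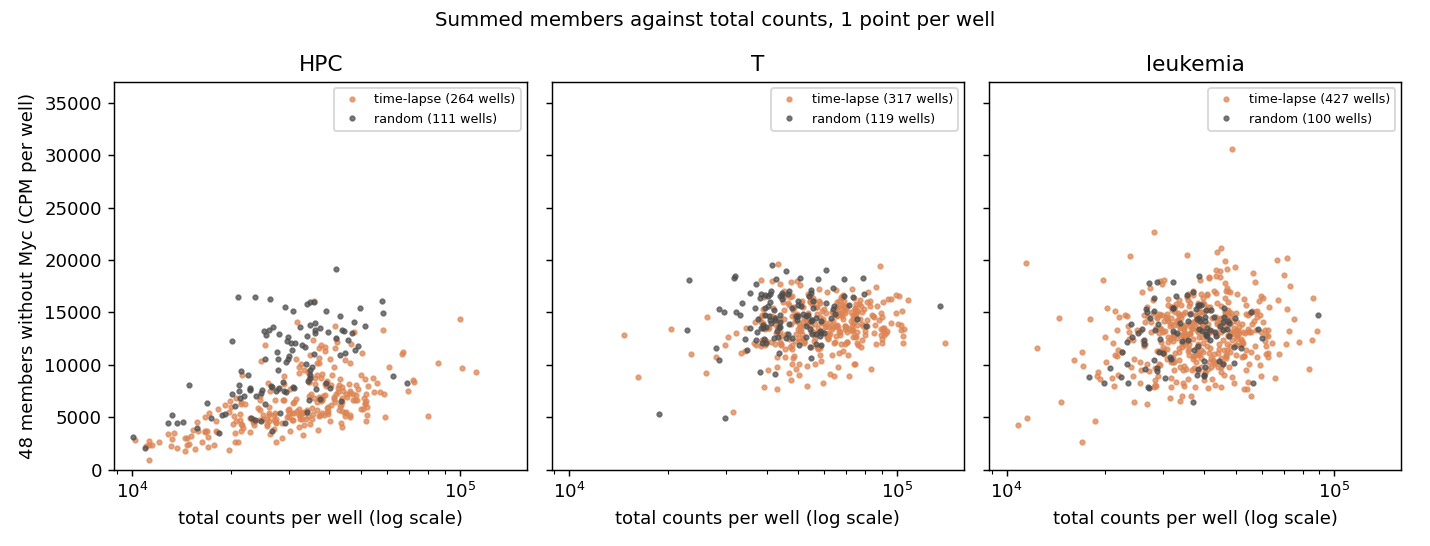
Summed CPM of 48 genes without Myc against total counts per well (log axis), with 1 point for each time-lapse and random well, by line. In HPC wells the sum goes up with the total in both modes (Spearman 0.63 and 0.57), and in T and leukemia wells the correlations are 0.14 to 0.19.

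With wells ranked by total counts within each mode, time-lapse HPC wells had lower median sums than random ones among shallow, middle and deep wells. The sets are not matched in depth between modes, and the part of depth in the difference was not tested. In the shallowest, middle and deepest 88 time-lapse HPC wells the median sum was 4372, 6508 and 7294 CPM, against 7018, 10508 and 12991 CPM in the shallowest, middle and deepest 37 random HPC wells. The median totals of these sets were 20627, 33961 and 46146 counts in time-lapse wells and 21239, 29584 and 41849 counts in random wells. Single time-lapse HPC wells ran from 887.3 to 16075 CPM, with a median of 5929 CPM, and random HPC wells from 2012 to 19116 CPM, with a median of 9502 CPM. Below 6000 CPM lay 50.8% of time-lapse and 16.2% of random HPC wells. In wells nearest the T profile the shares were 0.315% of time-lapse and 1.68% of random wells.

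Myc followed the other genes only weakly from well to well. Its Spearman correlation with the 48 summed genes was 0.21 over time-lapse, 0.40 over random, 0.26 over target and 0.04 over FACS HPC wells. In T wells it was 0.05, -0.23, -0.24 and -0.11 and in leukemia wells 0.20, 0.19, 0.04 and 0.35, in the same order of modes. With wells thinned to 10000 counts it was 0.16, 0.30, 0.10 and 0.17 in HPC wells, 0.06, -0.07, -0.06 and -0.27 in T wells and 0.17, 0.23, -0.04 and 0.18 in leukemia wells, so several values changed with thinning. Single members correlated with the other members with medians between 0.23 and 0.57 over the 12 groups of wells. In sparse counts such weak values are no finding.

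In PBMC many of the genes rested on few counts, while Ncl had a count in 83.2% and Npm1 in 66.1% of the wells used. The wells with at least 300 genes held 793981 counts in all, with a median of 2147 per well, so a count of 0 would allow up to 3.78 CPM. Markers of T cells (3345 CPM for 17 genes) and B cells (1999 CPM for 14 genes) led, followed by those of NK cells (605.7 CPM), monocytes (548.3 CPM) and neutrophils (533.4 CPM, in 0.885% of wells). Platelet and red cell genes were at 2.52 and 3.78 CPM. Myc had 2 counts in 2 wells, 2.52 CPM (exact Poisson interval 0.305 to 9.1). All 49 genes had at least 2 counts, and 20 reached 30 counts.

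Ncl and Npm1 had the highest CPM of the members in PBMC, as in the target wells of each line. Ncl stood at 1051.7 CPM (interval 981.5 to 1125.5), and Npm1 at 562.4 CPM (511.4 to 617.02). Nop56 stood at 261.3 CPM (226.99 to 299.4), Ddx21 at 215.4 CPM (184.3 to 250.2) and Tcof1 at 175.1 CPM (147.2 to 206.7), while Nop58 was at 68 CPM (51.1 to 88.7). Set beside the target wells, the sum of 3749 CPM in PBMC was 0.275 of that in HPC wells, 0.276 of that in T wells and 0.27 of that in leukemia wells. The ratio was below 1 against all 3 lines for 47 of 49 genes, the others being Wdr12, at 105.2 CPM in PBMC, and Tcof1. The share of all genes with such ratios is not given here, so low ratios are not read as particular to these genes. Mrto4 (8.82 CPM), Srm (12.6 CPM) and Bysl (5.04 CPM) were among the lowest ratios, on 7, 10 and 4 counts. The median total of cell line wells was at least 23611 counts in every group, Rn45s took 22.9% of PBMC counts, and fewer cells with a transcript and less of it per cell cannot be told apart in sums, so no call was made.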

How the data were processed

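Single-cell RNA libraries were primed with barcoded oligo-dT, per the labels' protocols. The authors deposited 1 table of expected counts per gene and well for the cell lines and 1 for PBMC, with 5.31% of positive values in the cell line table not whole. The submitters' processing notes name bcl2fastq, STAR and mm10, while for the counter, the annotation and any filter the sources used here give no name. The 49 genes and all lists were chosen with earlier results of these data known.

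Counts were summed per line and plate (at least 5 wells) and scaled to CPM. Differences are of the mean log2 (CPM + 1) over plates, within plates for target wells. Genes with at least 10 CPM and 30 counts in 1 group were tested against a 1.5-fold minimum and a rule on plates (all plates, every pair of plates, or 85% of time-lapse plates). No p-value was computed. Lines were assigned by likeness over 9983 genes, without the 49 and Rn45s, and no doublet caller was run. Counts were rounded only for thinning to 10000. PBMC wells had at least 300 genes. Median totals per group were 23611 to 58932 counts in cell line wells and 2147 in PBMC wells, which limits low genes most in PBMC. Named with plate values are Myc, the 5 genes of highest CPM and up to 10 called genes of largest difference per comparison. The plate split of T wells was described after the plate values were seen. The call rule was tested on simulated data. Alternatives changed Rn45s in the total, the CPM added, the CPM minimum, the fold, pooling, weighting, depth, line assignment and single plates. Promoters are RefSeq's (GRCm38.p6). Python 3.11.15, numpy 2.4.6, pandas 2.3.3 and scipy 1.17.1 were used.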

Additional observations from a re-analysis of the deposited data

Results flagged for a closer look

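Nop10 and Tsr1 differed in opposite directions in HPC wells and in wells nearest the T profile. Between time-lapse and random wells every plate was lower for both genes in HPC wells and higher in wells nearest the T profile. Nop10 differed by -1.28 on the log2 scale in HPC wells and by 1.36 in wells nearest the T profile, as means of log2 values over plates. With CPM averaged over plates before the log2, the difference in HPC wells minus that in wells nearest the T profile is -2.57. Tsr1 differed by -1.38 in HPC wells and by 0.68 in wells nearest the T profile, and the value computed in the second way is -1.96. These differences between lines were not tested. The time-lapse wells nearest the T profile hold little Thy1, as described above.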

How the results depend on the processing

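Over 2415 alternative values, 2280 kept direction and side of the threshold, 95 lost a call or fell below a limit, 28 gained one, 12 moved and 0 reversed. In time-lapse HPC wells the count called lower stayed between 27 (2-fold) and 39 (wells pooled over plates, no replicate block). With 1 plate left out it stayed between 33 and 38. Shares of all genes called under the alternatives are not given here. Nothing is therefore read from the counts of this section about the listed genes against all genes. With a 2-fold minimum, HPC against leukemia gave 0 lower, T against leukemia 1 higher and 1 lower, HPC against T 1 higher and 1 lower, time-lapse wells of the T profile 2 higher and 1 lower, and target against FACS T wells 0 higher. With each well weighing the same, HPC against T gave 1 higher, time-lapse leukemia 1 lower and target against FACS HPC wells 2 lower.

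For target against FACS wells, leaving Rn45s out of the total gave 3 higher in HPC, 2 higher in T and a median of 0.0617 in leukemia. Pooling over plates without the replicate block gave 1 higher in HPC, wells of at least 20000 counts 2 higher and 2 lower in HPC, and a 50 CPM minimum 0 higher in T. FACS wells by label gave 3 lower in HPC, 1 lower in T, and 4 higher, 2 lower and a median of 0.0381 in leukemia. With 1 plate left out, HPC against T gave 1 to 5 higher (1 without target plate 1, 5 without target plate 3), time-lapse leukemia 0 to 2 lower (2 without random plate 1), and target against FACS HPC wells 0 to 8 higher, 1 to 8 lower and a median of -0.18 to 0.26. T wells gave 1 to 14 higher and 0 to 14 lower, and leukemia wells 0 to 1 higher (1 without FACS plate 2). For HPC and T wells the extremes are those without FACS plate 1 (lower calls) and without FACS plate 2 (higher calls). The cause was not tested.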
